A study of Caenorhabditis elegans with 2 samples.

Results

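The 37 nuclear genes of oxidative phosphorylation described here were chosen by symbol from the 19973 protein-coding genes annotated on the nuclear chromosomes of Caenorhabditis elegans. The rule took 7 genes of complex I (nuo-1 to nuo-6 and gas-1), 5 of complex II (mev-1, sdha-1, sdha-2, sdhb-1 and sdhd-1), 9 of complex III with cytochrome c (isp-1, cyc-1, cyc-2.1, cyc-2.2, ucr-1, ucr-11 and the 3 ucr-2 genes), 7 of complex IV (cox-4 to cox-7C) and 9 of complex V (atp-1 to atp-5, asb-1, asb-2, asg-1 and asg-2). The rule also allowed atp-6, a symbol that no protein-coding gene of the annotation used here carries. The data are peak lists of chromatin immunoprecipitation and sequencing (ChIP-seq) against AMA-1, the largest subunit of RNA polymerase II, in whole young adult N2 worms, the laboratory wild type. The labels describe the animals as mixed sex, give their age as unknown, and name no mutation or treatment. There was 1 group with 2 biological replicates, so conditions could not be compared, and the genes were instead set beside all protein-coding genes.

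Oxidative phosphorylation moves electrons from NADH and succinate along complexes I to IV of the inner mitochondrial membrane to oxygen. Protons pumped on the way drive complex V, the ATP synthase. Most subunits are encoded in the nucleus and a few on the mitochondrial genome, which has its own RNA polymerase. None of the lists held a peak on the mitochondrial genome. In worms mev-1, gas-1, isp-1 and nuo-6 are known from mutants with altered lifespan or altered sensitivity to oxygen.

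Each entry of a list has a summit, the base at which the peak is highest, and the authors' signal value, which was used here to rank entries within a list, rank 1 being the strongest. The authors' final list, called optimal, has 1103 entries and was made from both replicates. The pooled list has 30000 entries, reaches far into background, and contains every optimal entry as its strongest part. Its 5554 strongest entries share its highest −log10 q-value of 4.05 and serve as an intermediate list. The lists of replicate 1 and replicate 2 have 27847 and 30000 entries. A gene was counted as holding a summit that fell anywhere between 500 bp before its annotated start and its annotated end. Sequencing depth cannot be read from peak lists, so the 95% Wilson intervals below cover the counting of genes and nothing else, and no test was made.

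Nearly every oxidative phosphorylation gene held a polymerase summit in the long lists, and few did in the optimal list. In the optimal list 4 of 37 genes held a summit (10.8%, interval 4.29 to 24.7), against 636 of 19973 protein-coding genes (3.18%). At the highest q-value 19 of 37 did (51.4%, 35.9 to 66.6), against 13.8% of protein-coding genes. In the whole pooled list 35 of 37 did (94.6%, 82.3 to 98.5), against 37.3%. In replicate 1 the count was again 35 of 37, against 43.3% of protein-coding genes, and in replicate 2 it was 35 of 37, against 35.6%. The strongest pooled summit of the members had a median rank of 4692, which is 15.6% of the way down the list, against 8164.5 (27.2%) for all protein-coding genes with a pooled summit.

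**Figure D1:**
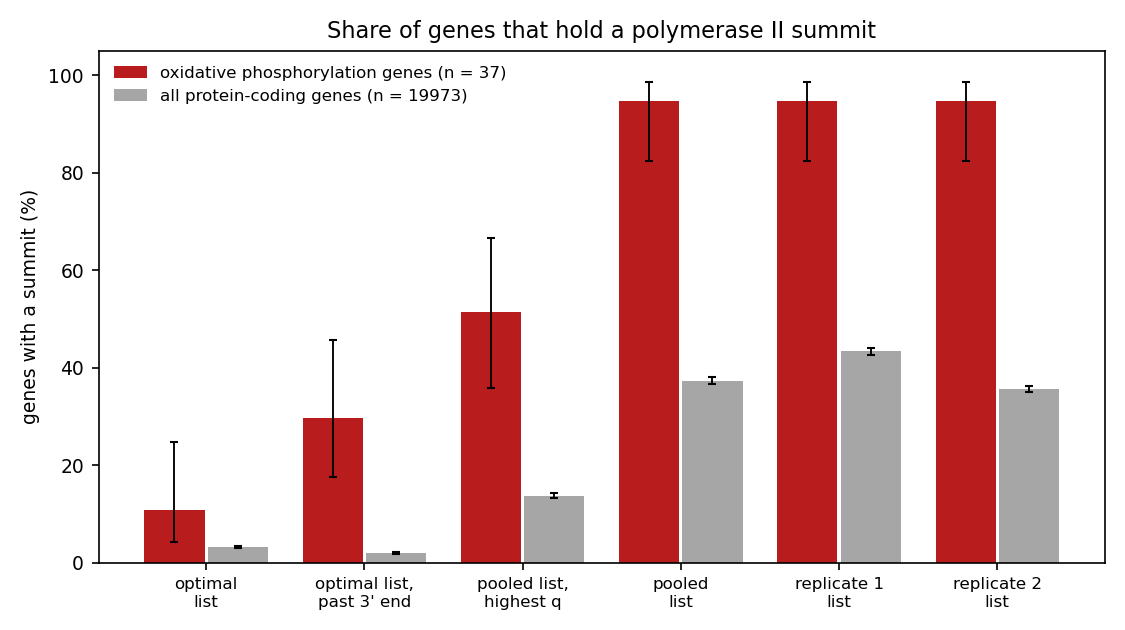
Percent of genes with a summit in each list, for the 37 oxidative phosphorylation genes (red) and for all 19973 protein-coding genes (grey), with bars for the 95% Wilson interval. The red bar is higher in each list; the past 3' end pair counts optimal summits up to 500 bp beyond the annotated end.

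The 4 genes with an optimal summit in this window belong to complexes III, IV and V. At atp-1 (WBGene00010419), the alpha subunit of the catalytic head of ATP synthase, the summit ranked 318 in the optimal list with a signal value of 66.4, and it ranked 454 in replicate 1 and 453 in replicate 2. It lay 155 bp inside the gene, in coding sequence (ce11, chromosome I, 12652432), and within reach of a neighbour, mcrs-1. A further optimal summit of atp-1, of rank 889, lay 1769 bp from its start. At ucr-11 (WBGene00019007), a small subunit of complex III, the summit ranked 800 (signal value 45.2), with ranks of 3988 in replicate 1 and 747 in replicate 2, and it lay 36 bp inside the gene in coding sequence (chromosome I, 6553343). At atp-4 (WBGene00020275), coupling factor 6 of the stalk of ATP synthase, it ranked 1054 (signal value 41.3), with 3927 in replicate 1 and 1127 in replicate 2. That summit lay 459 bp before atp-4, in a non-coding exon of alh-4 on the same strand (chromosome V, 6427571), so its gene is ambiguous. At cox-5A (WBGene00012553), a nuclear subunit of cytochrome c oxidase, it ranked 1100 (signal value 40.5). That summit lay 229 bp before the gene, outside any annotated gene (chromosome III, 12905262). The strongest cox-5A entry of replicate 2 (rank 629) lay at the same base. That of replicate 1 (rank 6635) was a different one, 386 bp inside the gene. By the strongest entry of each gene, atp-1 ranked alike in the replicates, and the other 3 genes ranked higher in replicate 2.

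Of these genes, atp-4 and cox-5A sat close to the end of the optimal list, whose weakest entry has a signal value of 40.45. The members just inside it were cox-5A (40.5) and atp-4 (41.3), and those just outside were mev-1 (rank 1297, signal value 38.0) and atp-2 (rank 1379, 36.9). The next were cox-6C at rank 1701, cyc-2.1 at 2330 and nuo-5 at 2575.

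**Figure D2:**
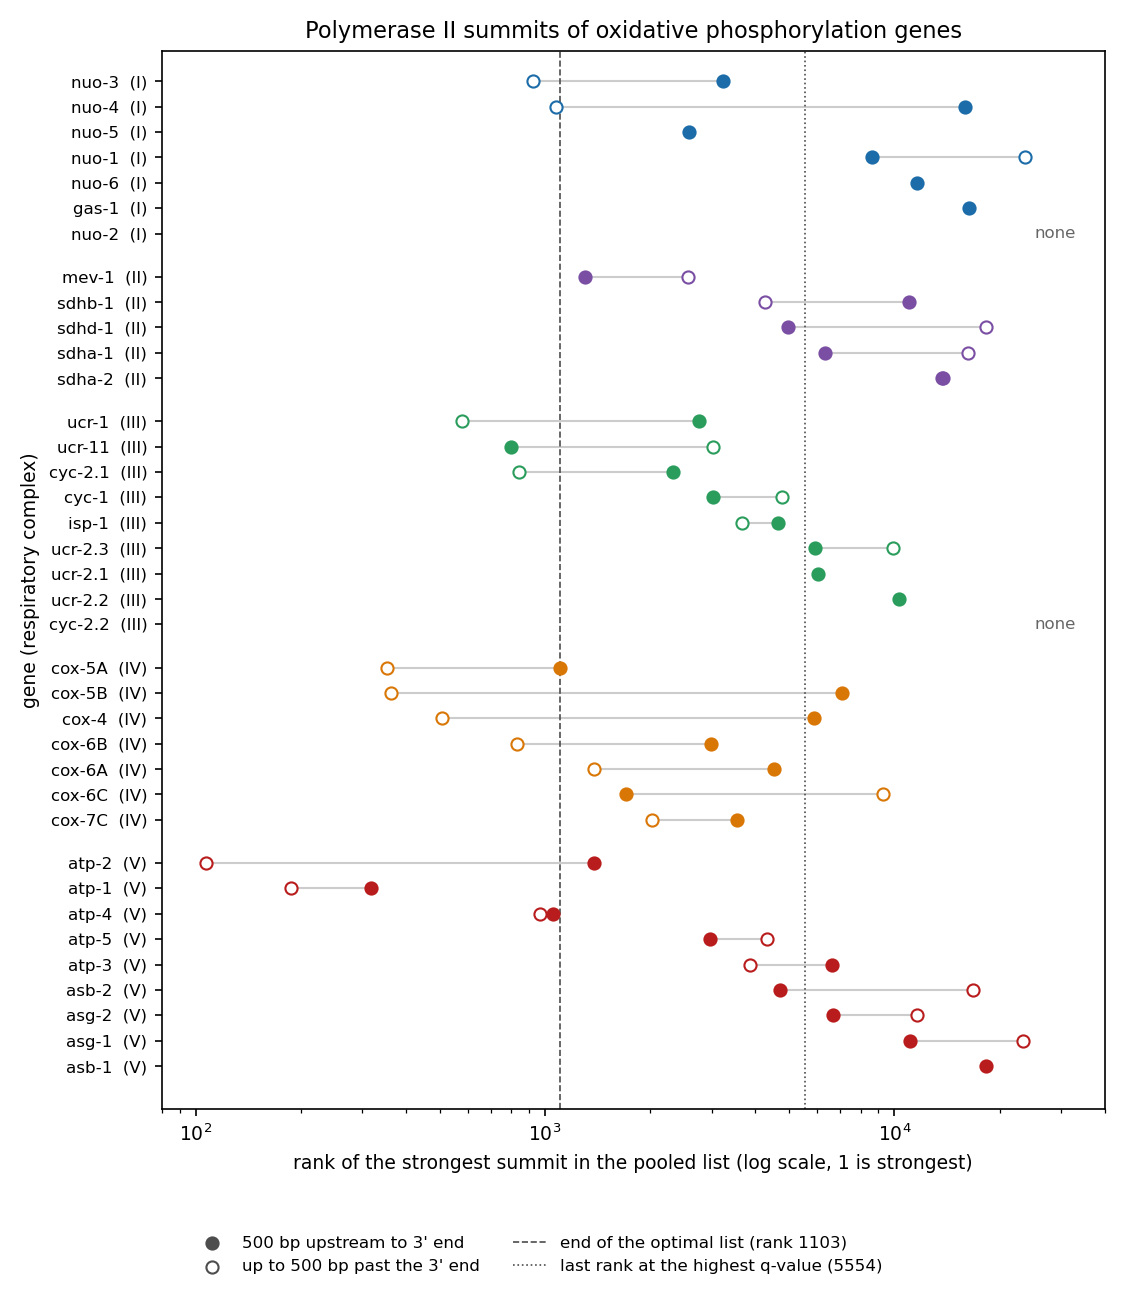
Rank in the pooled list (log scale, strongest on the left) of each gene's strongest summit between 500 bp before its start and its end (filled) and up to 500 bp past its end (open), by complex. Dashed and dotted lines mark the end of the optimal list at rank 1103 and the last entry at the highest q-value, rank 5554; the open points of cox-5A, cox-5B, cox-4, ucr-1, atp-2 and atp-1 lie far to the left of the dashed line.

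Complex I, the NADH dehydrogenase that passes electrons to ubiquinone, had the lowest median rank of the 5 complexes in the pooled list and not in either replicate. The median was 4931 in replicate 1 and 6555 in replicate 2, where complex II was lower, at 8273 in replicate 1 and 10747 in replicate 2. The rule does not take every gene of complex I. Among the further subunits and assembly factors counted below, nduf-11 and nuaf-1 held optimal summits, at ranks 216 and 391. None of the 7 complex I genes that the rule took held an optimal summit in this window (interval up to 35.4%). Of these 7, 2 held one at the highest q-value and 6 in the pooled list, with a median rank of 10106.5. The strongest was nuo-5 (rank 2575 pooled, 4164 in replicate 1, 4633 in replicate 2), which encodes the large iron-sulfur subunit of the peripheral arm; its summit lay 80 bp inside the gene, in coding sequence, and the summits of both replicates lay 1 bp apart. The weakest was gas-1 (rank 16388 pooled, no summit in replicate 1, 14044 in replicate 2), which encodes a core subunit of the same arm and is the complex I member on chromosome X. At nuo-2, a further core subunit of the peripheral arm, no pooled summit was found, although replicate 1 had an entry of rank 12370 and replicate 2 an entry of rank 10121 in its window. Those entries lay 1748 bp apart, and each was shared with a neighbouring gene.

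Complex II, succinate dehydrogenase, also works in the citric acid cycle. None of its 5 genes held an optimal summit (interval up to 43.4%), 2 held one at the highest q-value, and all 5 held a pooled one, with a median rank of 6313. The strongest was mev-1 (WBGene00003225), the cytochrome b subunit that anchors the enzyme in the membrane. Its summit of pooled rank 1297 lay 71 bp inside the gene and was shared with jmjd-4. The replicates placed mev-1 far apart, at 16998 in replicate 1 and 683 in replicate 2. The weakest was sdha-2, an isoform of the flavoprotein subunit, at pooled rank 13689.

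Complex III passes electrons from ubiquinol to cytochrome c, the mobile carrier. Of its 9 genes, 1 held an optimal summit, 5 one at the highest q-value and 8 a pooled one, with a median rank of 3832. After ucr-11, cyc-2.1, which encodes cytochrome c, was the strongest in the pooled list (rank 2330). Its pooled summit lay 181 bp before it in coding sequence of rpl-20, a ribosomal protein gene 110 bp upstream on the same strand. The strongest cyc-2.1 entries of the replicates lay elsewhere. They were 39 bp before the gene in replicate 1 (rank 834) and 580 bp inside it in replicate 2 (rank 3969). The weakest gene with a pooled summit was ucr-2.2 at rank 10329. The isoform cyc-2.2 (chromosome V, 12611682 to 12612218) held no summit in any list.

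Complex IV, cytochrome c oxidase, had the strongest median rank in the pooled list, 3545, and in both replicates, with 2532 in replicate 1 and 3959 in replicate 2. Of its 7 genes, 1 held an optimal summit, 5 one at the highest q-value and 7 a pooled one, the weakest being cox-5B at rank 7092. Of the 7, cox-6B is annotated across 87197 bp because of a long transcript that overlaps 14 other protein-coding genes, and its 21 pooled summits therefore include those of other genes. Over its shortest transcript of 553 bp the strongest pooled summit ranked 3348, against 2986 over the whole span.

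Complex V makes ATP from the proton gradient. Of its 9 genes, 2 held an optimal summit, 5 one at the highest q-value and 9 a pooled one, with a median rank of 4692. In the pooled list its genes ranged from atp-1 at rank 318 to asb-1 at rank 18249. That was the widest range of the 5 complexes there, while complex III was wider in replicate 1 (834 to 26622) and complex I in replicate 2 (3439 to 21575). With 5 to 9 genes in a complex the intervals overlap widely: 22.2% in complex V has an interval of 6.32 to 54.7, which contains the shares of complexes III (11.1%) and IV (14.3%).

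More members held an optimal summit past the annotated end of the gene, in the stretch that the counts above leave out, than in the window used so far. Up to 500 bp beyond the 3' end, 11 of 37 members (29.7%, interval 17.5 to 45.8) had an optimal summit, against 1.92% of protein-coding genes. Of these 11, 8 held no optimal summit in the window used above. With both windows joined, 12 of 37 members (32.4%) had an optimal summit, against 4.4% of protein-coding genes. The 12 are atp-1, atp-2, atp-4, cox-4, cox-5A, cox-5B, cox-6B, cyc-2.1, nuo-3, nuo-4, ucr-1 and ucr-11. The stretch past the 3' end was given a count of its own after the values had been seen.

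At the highest q-value 20 of 37 members held a summit past the 3' end (54.1%), against 6.65% of protein-coding genes. The same count was made among genes with a summit in the usual window, whose strength was not matched between members and other genes. Of genes with a pooled summit in the usual window, 11 of 35 members (31.4%, interval 18.6 to 48.0) held an optimal summit past the 3' end, against 357 of 7458 protein-coding genes (4.79%). Of genes whose summit in the usual window was at the highest q-value, 8 of 19 members did (42.1%, 23.1 to 63.7), against 294 of 2752 (10.7%). Where a gene had pooled summits in both places, the one past the end was the stronger in 16 of 29 members (55.2%, 37.5 to 71.6). The share was 1418 of 3729 protein-coding genes (38.0%), which that interval contains. Taking the 1103 strongest entries of each replicate alone, 7 of 37 members held one past the 3' end in replicate 1, against 1.69% of protein-coding genes, and 8 of 37 in replicate 2, against 1.74%.

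Complex IV stood highest in this count, with 4 of 7 genes (57.1%, interval 25.05 to 84.2), followed by 3 of 9 in complex V, 2 of 7 in complex I, 2 of 9 in complex III and 0 of 5 in complex II (interval up to 43.4%). In complex IV the summits past cox-4 and cox-6B lay in coding sequence of other genes, sac-2 and nduc-2. So did those past nuo-3 in complex I (coq-3) and cyc-2.1 in complex III (tctn-1). The order of the complexes therefore rests in part on summits whose gene is ambiguous. Replicate ranks below are those of the strongest entry past the end, which need not be the same summit. In complex IV the summit past the end outranked the other in 6 of 7 genes. At cox-5A it ranked 352 in the pooled list (signal value 62.6), 293 in replicate 1 and 754 in replicate 2, and lay 200 bp past the end. At cox-5B it ranked 362 (signal value 62.4), 4092 in replicate 1 and 258 in replicate 2, 81 bp past the end. At cox-4 it ranked 507 (53.9), 1114 in replicate 1 and 478 in replicate 2, 84 bp past the end. These 3 genes encode nuclear subunits that surround the catalytic core of the oxidase, which is itself encoded on the mitochondrial genome.

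The strongest entry of the whole gene set was past the end of atp-2 (WBGene00000229), the catalytic beta subunit of ATP synthase. It ranked 107 in the pooled list with a signal value of 103, 363 in replicate 1 and 110 in replicate 2, and lay 37 bp past the end (chromosome III, 5230573), in a non-coding exon of prmt-5. At atp-1 the summit 126 bp past the end ranked 188 (signal value 81.4), 220 in replicate 1 and 253 in replicate 2, outside any gene. At ucr-1, a core protein of complex III, it ranked 577 (51.4), 3482 in replicate 1 and 647 in replicate 2, 270 bp past the end. At nuo-4, a complex I accessory subunit, it ranked 1075 (40.8), 10253 in replicate 1 and 672 in replicate 2, 302 bp past the end and outside any gene. The strongest entries past the ends of cox-5A, atp-1 and atp-2 were within the first 1103 entries in both replicates. Those of the other 8 genes were so in 1 replicate each. They were not always the pooled summit: that of cyc-2.1 in replicate 1 lay 50 bp past the end, against 214 bp in the pooled list.

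Many of these summits lie where genes crowd together. Of the 11 members, 6 had their optimal summit past the end within the window of another protein-coding gene (54.5%, interval 28.01 to 78.7), against 232 of the 383 protein-coding genes with such a summit (60.6%). The neighbours were coq-3 beside nuo-3, tctn-1 beside cyc-2.1, sac-2 beside cox-4, nduc-2 beside cox-6B, prmt-5 beside atp-2 and T05H4.11 beside atp-4. For nuo-4, ucr-1, cox-5A, cox-5B and atp-1 no other protein-coding gene had the summit in its window. The summit past atp-1 nevertheless lay past the 3' end of T26E3.7 as well. Which gene the polymerase at a shared summit was transcribing cannot be told from a peak list.

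**Figure D3:**
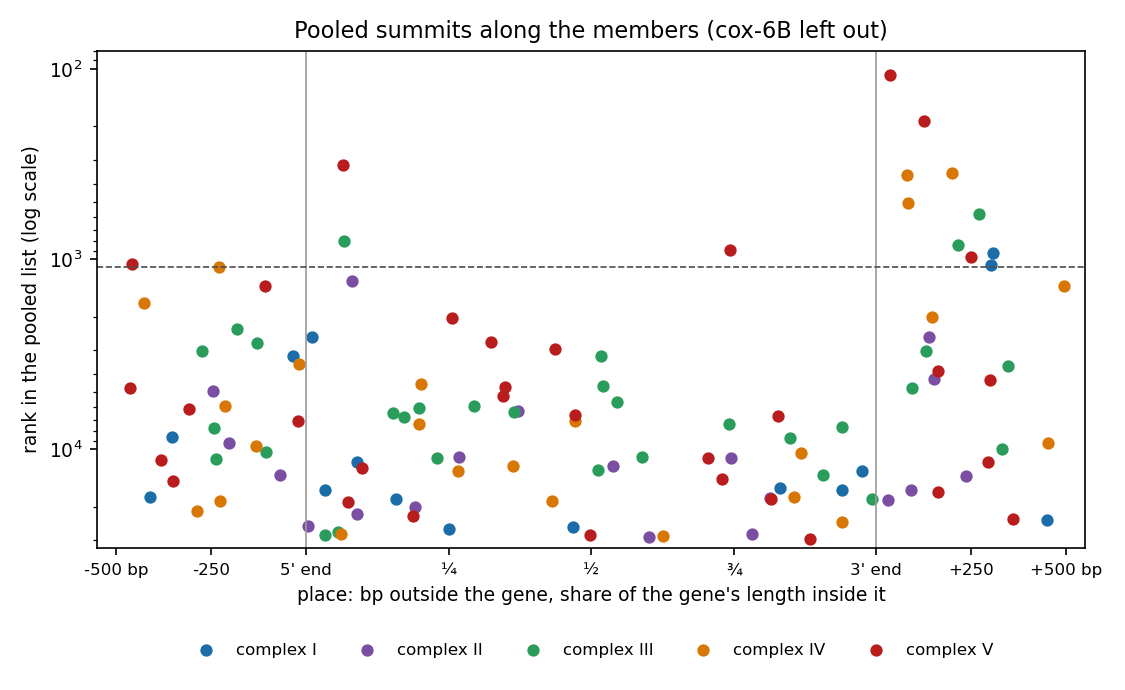
Pooled summits along the members other than cox-6B: distance in bp before the start, share of the gene's length inside it, and the strongest summit in bp past the end, against rank in the pooled list (log scale, strongest on top), coloured by complex. Above the dashed line, the end of the optimal list at rank 1103, most points lie past the 3' end, led by atp-2 at rank 107.

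The bases under 4 optimal summits are given to show where they fall: before and past cox-5A and past nuo-4, all 3 outside any gene, and past cox-6B, in coding sequence of nduc-2. Each is 101 bases of the reference genome (RefSeq, WBcel235, the coordinates of ce11), written 5′ to 3′ on the strand of the named member, with the 11 bases at the summit in capitals.
cox-5A, 229 bp before its start (chrIII:12905212-12905312, plus strand): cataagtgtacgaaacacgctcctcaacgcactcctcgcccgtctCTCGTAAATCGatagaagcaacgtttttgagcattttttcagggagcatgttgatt
cox-5A, 200 bp past its end (chrIII:12906769-12906869, plus strand): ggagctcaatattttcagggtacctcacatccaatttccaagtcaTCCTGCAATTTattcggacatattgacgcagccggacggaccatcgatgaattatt
nuo-4, 302 bp past its end (chrIII:7155674-7155774, minus strand): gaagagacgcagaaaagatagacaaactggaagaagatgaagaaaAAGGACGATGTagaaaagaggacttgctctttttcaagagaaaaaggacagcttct
cox-6B, 138 bp past its end (chrIII:2786947-2787047, plus strand): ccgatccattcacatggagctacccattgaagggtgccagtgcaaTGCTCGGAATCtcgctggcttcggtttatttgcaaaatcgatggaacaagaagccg

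Within the usual window the place of the members' strongest pooled summits gave shares whose intervals contain those of all protein-coding genes. Of 35 members, 14 had it before the start (40%, interval 25.6 to 56.4), against 30.8% of 7458 protein-coding genes with a pooled summit. It lay within 500 bp of the annotated start in 24 (68.6%, 52.0 to 81.4), against 57.99%, and within 500 bp of the annotated end, inside the gene, in 4 (11.4%, 4.54 to 26.0), against 18.3%. The members are short, with a median length of 1376 bp against 2027 bp for all protein-coding genes, so that the windows at both ends cover more of a member. In 17 of 35 the summit lay in the member's own coding sequence, in 10 outside any gene, in 4 in its own intron and in 4 in another gene. This split was not made for all protein-coding genes, so it describes the members alone. The nearest protein-coding start was the member's own in 30 of 35 (85.7%), against 78.0%.

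Neighbours bear on the assignment of several members. Of 35 strongest pooled summits, 12 lay in the window of another protein-coding gene as well (34.3%, interval 20.8 to 50.8), against 21.5% of protein-coding genes. A gene on the same strand ended within 500 bp upstream of 11 of 37 members (29.7%), against 18.1%, and 12 of 37 overlapped another protein-coding gene (32.4%), against 26.4%. At sdhd-1, the membrane anchor of complex II, the summit at pooled rank 4945 lay 98 bp from the start of ilkp-1. At nuo-1, the flavoprotein that accepts electrons from NADH, the summit at rank 8612 lay 279 bp from the start of rpl-36.A. When summits shared between protein-coding genes were left out, the median pooled rank was 6185.5, against 4692 with them. The members were not spread evenly over the genome: 11 of 37 are on chromosome I (29.7%, against 14.4% of protein-coding genes), 9 on chromosome III (24.3%, against 13.2%) and 4 on chromosome V (10.8%, against 25.004%).

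Each replicate held 35 of 37 members, so most of them had to be shared, and the replicates ranked many of them differently. A summit was found in both replicates at 34 of 37 members, against 5773 of 19973 protein-coding genes. It was found in replicate 1 alone at asb-1, in replicate 2 alone at gas-1 and in neither at cyc-2.2. Ranked as percent of the list, 17 of the 34 stood higher in replicate 1 and 17 in replicate 2. The strongest summits of the replicates lay within 100 bp of each other at 11 of 34 members (32.4%), against 1253 of 5773 protein-coding genes (21.7%). Among autosomal members the median position was 14.05% of the list in replicate 1 and 15.4% in replicate 2.

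Members on the X chromosome ranked lower in replicate 1 than in replicate 2. The 6 are gas-1, sdha-1, ucr-2.1, ucr-2.2, asb-2 and asg-2; 5 held a summit in both replicates, and their medians were 51.5% of the list in replicate 1 and 21.5% in replicate 2. For all X-linked protein-coding genes the medians were 35.9% in replicate 1 and 23.6% in replicate 2. Of the 5 members, 4 stood higher in replicate 2, and ucr-2.1 stood higher in replicate 1. Markers of some tissues differed between the replicates too: all 5 germline and oocyte markers held a summit in replicate 1 and 2 of 5 (cgh-1 and puf-5) in replicate 2. Of 5 intestine markers, 3 (vit-6, vit-2 and act-5) held one in replicate 1 and none in replicate 2, with ges-1 and elt-2 in neither. The counts were 4 of 5 in replicate 1 and 5 of 5 in replicate 2 for body wall muscle, 3 and 4 for neurons, 2 and 3 for epidermis, and 1 and 0 for sperm. Their part in the members' ranks was not tested.

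In 4 families of isoforms a copy on an autosome can be set beside copies on X, and replicate 1 ranked the autosomal copy first in each of the 4. For the b subunit of ATP synthase, asb-1 (chromosome III, known as the germline form) ranked 2420 in replicate 1, with a summit shared with apc-11, and held no summit in replicate 2, while asb-2 (X) ranked 7570 in replicate 1 and 6459 in replicate 2. For the g subunit, asg-1 (chromosome I) ranked 3054 in replicate 1 and 12554 in replicate 2, and asg-2 (X) 14333 in replicate 1 and 4663 in replicate 2. The asg-1 summit of replicate 2 was shared with mrps-15, and the asg-2 summit of replicate 1 with glr-6. For the flavoprotein of complex II, sdha-2 (chromosome I) ranked 2773 in replicate 1 and 14056 in replicate 2, and sdha-1 (X) 15681 in replicate 1 and 2218 in replicate 2. Replicate 2 thus ranked the X-linked copy first in these 3 families. For the ucr-2 genes, which encode a core protein of complex III, it did not: ucr-2.3 (chromosome III) ranked 2439 in replicate 1 and 6406 in replicate 2, ucr-2.1 (X) 6802 in replicate 1 and 12500 in replicate 2, and ucr-2.2 (X) 26622 in replicate 1 and 9387 in replicate 2. With 4 autosomal and 5 X-linked copies and 1 library per replicate, these orders describe the libraries.

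**Figure D4:**
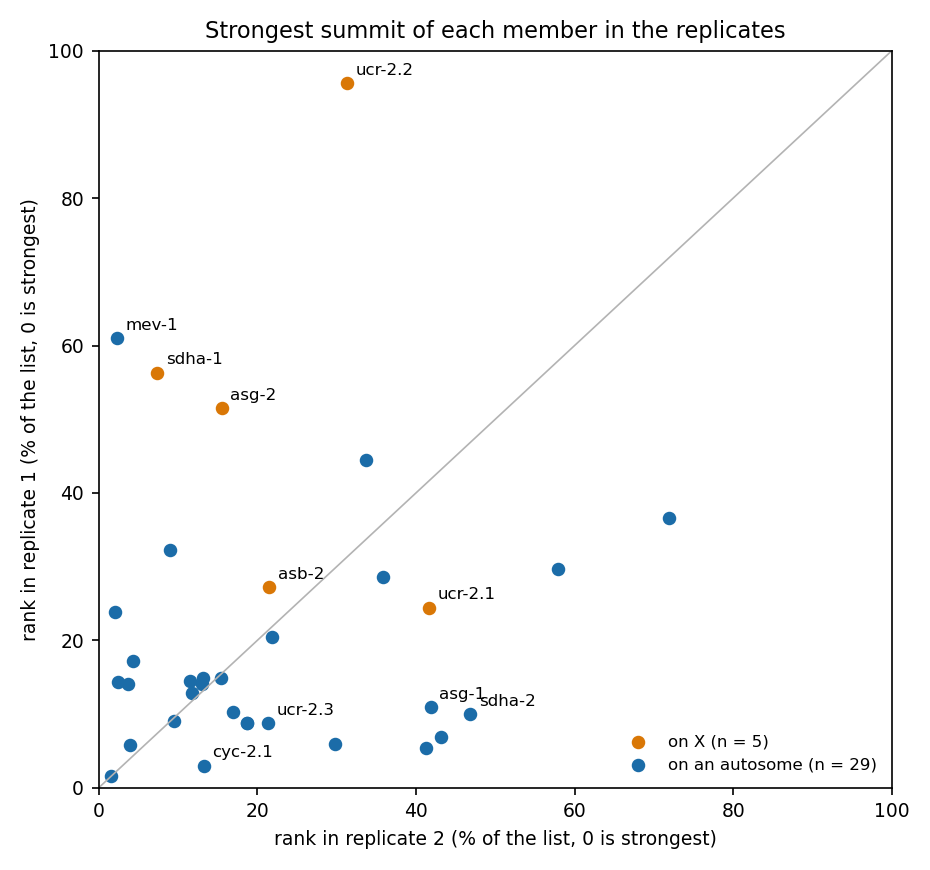
Position of each member's strongest summit in the list of replicate 2 (x axis) and replicate 1 (y axis), in percent of the list with 0 the strongest, for the 34 members with a summit in both. Orange points are on X and 4 of the 5 lie above the diagonal, while asg-1, sdha-2 and ucr-2.3 on autosomes lie below it.

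The isoforms differ in sequence. Identity of the encoded proteins, from the reference genome, was 72.1% between asb-1 and asb-2, 76.3% between asg-1 and asg-2, 81.4% between sdha-1 and sdha-2, 80.2% between cyc-2.1 and cyc-2.2, and 41.3% to 43.0% among the ucr-2 genes. No pair shared a run of 36 identical bases of coding sequence. The 2 cytochrome c genes are both on autosomes. Summits were counted for cyc-2.1 in both replicates and in the pooled list, where the strongest lay in coding sequence of rpl-20. For cyc-2.2, which overlaps cubn-1, no summit was found in any list.

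The letters before the annotated start were also compared with those of the genome. Many worm messages have their first bases replaced by a spliced leader, and the annotated start of such a gene is the splice acceptor, whose usual letters are TTTCAG, rather than the place where transcription begins. TTTCAG stood directly before the start of 14 of 37 members (37.8%), against 12.3% of protein-coding genes. The 30 bases before the start are given for 6 members with these letters, in capitals, and for 3 without them (reference genome as above, on the strand of the gene). Those 3 also end in ag, as TTTCAG does, so they do not show that a splice acceptor is absent.
mev-1 (chrIII:10334247-10334276, plus strand): attttgataagaaaatcagcattgTTTCAG
cox-5A (chrIII:12905461-12905490, plus strand): ttttctcatcttaaagctcattgtTTTCAG
cox-6C (chrIV:126701-126730, plus strand): taaggctcaattaaataaatctatTTTCAG
atp-2 (chrIII:5228387-5228416, plus strand): ttatacaatccaaataaattatgtTTTCAG
sdha-1 (chrX:8546022-8546051, minus strand): ggcatgtatatcacgtttatcgatTTTCAG
asg-2 (chrX:6841228-6841257, plus strand): ttttcgtttcaaataacgttaattTTTCAG
atp-4 (chrV:6427113-6427142, minus strand): acagaaaacaatttctaaatttatattcag
asb-1 (chrIII:4595822-4595851, minus strand): agtaacgcccaaaaattctttgaattccag
gas-1 (chrX:15590398-15590427, minus strand): ttgctcactattcaccgaatatttttatag

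Of the other 3 motifs searched, CCGCCC stood furthest above its share in the genome. From 250 bp before the start to 50 bp inside the gene, CCGCCC or its reverse complement GGGCGG was found in 10 of 37 members (27.0%), against 7.83% of protein-coding genes. The 10 include cox-6B, whose match lies just inside the start of its long transcript. That start is 86541 bp from the start codon. TATAAA was found on either strand in 17 of 37 (45.9%), against 37.9%, and GAGAGA in 11 of 37 (29.7%), against 21.8%. No base run can match more than 1 of these motifs in full. A match describes the letters of the window and shows no binding. In 5 of the members with CCGCCC the match and its surroundings read as follows, in 30 bases with the match in capitals; at ucr-1 the pooled summit of rank 2764 lay 129 bp before the start, close to the match.
mev-1, first base of the match at -50 from the start (chrIII:10334215-10334244, plus strand): ttttgaaacgcaCCGCCCtgtttctttttt
isp-1, match at -201 (chrIV:8136239-8136268, minus strand): catacagacagtCCGCCCgttgagtttgtc
ucr-1, match at -138 (chrIII:5591985-5592014, plus strand): ctctgcactgctGGGCGGcttgatggtttt
asb-2, match at -228 (chrX:4469526-4469555, plus strand): ggagagatagacGGGCGGactccgtactgc
atp-2, match at -221 (chrIII:5228184-5228213, plus strand): gccccgctcatcGGGCGGtctagcctgttt

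Other genes of the pathway held summits at shares that differed between lists. Of 29 further subunits and assembly factors, 4 held an optimal summit, 14 one at the highest q-value and 24 a pooled one. The 4 were mai-1 and mai-2, both homologues of the inhibitor of ATP synthase (ranks 193 and 372), nduf-11 (216) and nuaf-1, an assembly factor of complex I (391). Of 13 carriers and ubiquinone genes, 3 held an optimal summit, 4 (30.8%) one at the highest q-value and 10 (76.9%) a pooled one. The strongest was ant-1.1, which encodes the ADP/ATP translocase of the inner membrane, with the strongest entry among these pathway lists in the usual window (rank 30, signal value 156, rank 90 in replicate 1 and 31 in replicate 2). The other optimal summits were at coq-6 (rank 46) and coq-3 (739), both of ubiquinone synthesis; the symbol coq-7 matched no gene, and clk-1, another name of that gene, is in the list. Of 19 genes listed for the citric acid cycle, 11 held a summit at the highest q-value, 18 a pooled one and 5 an optimal one. The 5 were cts-1, citrate synthase (rank 291), mdh-1 (622), idh-1 (732), aco-2, the mitochondrial aconitase (755), and fum-1, fumarase (1057). The list holds both mdh-1 and mdh-2 and both idh-1 and idh-2, and was not sorted by place in the cell. Neither mdh-2 nor idh-2 held an optimal summit (pooled ranks 1928 and 7510).

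The same counts were made for other large sets of genes. An optimal summit was held by 4 of 37 members, against 10 of 79 cytosolic ribosomal protein genes, 5 of 66 mitochondrial ribosomal protein genes and 2 of 20 genes of the vacuolar proton pump. A pooled summit was held by 35 of 37 members, against 75 of 79, 56 of 66 and 18 of 20 in the same order. Past the 3' end 11 of 37 members (29.7%) held an optimal summit, against 5 of 20 vacuolar pump genes (25%, interval 11.19 to 46.9) and 5 of 19 citric acid cycle genes (26.3%), 2 of 79 cytosolic ribosomal protein genes (2.53%, 0.697 to 8.77) and 0 of 66 mitochondrial ones (up to 5.50%). The count for cytosolic ribosomal protein genes depended on the list: it was 11 of 79 (13.9%) with the 1103 strongest entries of replicate 1, 0 of 79 with those of replicate 2, and 28 of 79 (35.4%) at the highest q-value, against 6.65% of protein-coding genes. The further subunits and assembly factors had 2 of 29, and the carriers and ubiquinone genes 1 of 13. Whether these sets differ from the members beyond counting was not tested.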

How the data were processed

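AMA-1 ChIP-seq peak lists of 2 biological replicates in 1 group were used on genome build ce11. Per the README deposited with each sample, the replicate lists came from 1 replicate and a control, the pooled list from both replicates, and the optimal list from all 3; lists on ce10 and the control were not used here, and no source used here names the aligner or peak caller. The deposited signal value is a score of the authors' caller and ranked entries within a list. Significance was deposited as −log10 of the q-value. Depth is unknown.

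Summits (deposited start plus summit offset) were placed on Ensembl release 115 genes of WBcel235, 1-based, and shared summits counted for each gene. The members and lists, and the choice of what to describe, were made with earlier results of these data known, so shares are descriptions with 95% Wilson intervals and no test. Replicates were compared by percent of list. The genes named were those with an optimal summit, the strongest and weakest of each complex, those with no pooled summit, the isoform families and, chosen after their values were seen, those with an optimal summit past the 3' end, those just outside the optimal list, and those whose summit is nearest another gene. Placement was checked on simulated data. Proteins of isoforms were translated from the reference and aligned. Software was Python 3.11.15, numpy 2.4.6, pandas 2.3.3, scipy 1.17.1, biopython 1.88 and matplotlib 3.10.9.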

Additional observations from a re-analysis of the deposited data

How the results depend on the processing

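The count of 4 members with an optimal summit was 1 with the 551 strongest optimal entries, 7 with 2206 pooled entries, 2 with gene bodies alone and 12 with 500 bp past the 3' end added; with the 1103 strongest entries of a single replicate it ranged from 2 to 4. By complex, the stronger part of the list gave 0 in III, 0 in IV and 1 in V; 2206 entries gave 1 in II and 2 in IV; gene bodies alone gave 0 in IV and 1 in V; 1000 bp upstream gave 2 in IV; the added 500 bp gave 2 in I, 3 in III and 4 in IV; counting peaks that overlap the gene body gave 2 in IV; and leaving out summits shared between genes gave 1 in V. Single replicates gave 0 to 1 in II, 0 to 1 in IV and 1 to 1 in V. The 19 members at the highest q-value became 11 with gene bodies alone. The median pooled rank stayed between 4666 and 6616, and the median rank was 3988 in the list of replicate 1 and 5092 in that of replicate 2. The order of complexes by the optimal count therefore rests on 1 or 2 genes. No paired analysis was possible because there was 1 group and no test.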
